A study of Mus musculus with 8 samples.

Results

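The SOX family of transcription factors was followed through mouse hindstomach organoids that carried active YAP. The genes described are Sox2, Sox4, Sox7, Sox9, Sox11, Sox12, Sox13, Sox15 and Sox21, found by symbol as 9 rows of a table of 56691 genes. The organoids, which are cultures grown in 3 dimensions, were made from epithelium of the glandular stomach at embryonic day 18.5 and kept for 5 days in growth medium and then 7 days in differentiation medium. Bulk RNA was sequenced from 4 YAP5SA cultures (genotype Shh-Cre;YAP5SA) and 4 Ctrl cultures (genotype Shh-Cre), so that both groups carry a Cre recombinase under the control of Shh, a gene active in foregut epithelium, and only the first carries YAP5SA, a form of the Hippo pathway coactivator YAP that the pathway's kinases cannot switch off. Whether the 4 cultures of a genotype came from separate embryos is not in the labels, so every p-value is read against the spread of these cultures alone, which may be technical.

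SOX proteins share a DNA-binding domain, the HMG box, which bends DNA at short A- and T-rich sites, and they usually act together with a partner factor. The family is split into groups by the similarity of that domain. SOX2 (group B1) and SOX21 (group B2) act in foregut and neural progenitors, SOX4, SOX11 and SOX12 form group C and are best known from embryonic progenitors, SOX13 belongs with SOX5 and SOX6 to group D, SOX9 with SOX8 and SOX10 to group E, SOX7 with SOX17 and SOX18 to group F, and SOX15 alone makes up group G. In the developing stomach SOX2 is known as a factor of gastric against intestinal identity, and SOX9 as a factor of progenitors in several endodermal organs.

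Total counts per library lay between 17387372 and 21039926 in YAP5SA and between 18225648 and 25841256 in Ctrl. The 8 YAP target genes checked were all called higher in YAP5SA (edgeR test below), beside 33.1% of all tested genes. Ccn1, which encodes a matricellular protein, was at 433 ± 33.2 CPM (the count of a gene over the scaled total of its library) in YAP5SA and 32.0 ± 3.29 CPM in Ctrl (SD, n = 4 each). The smallest rise of the 8 was that of Ajuba, with a log2 fold change of 0.32 (SE 0.09). The median absolute change over all tested genes was 0.52. The 6 epithelial markers were abundant, with sums of 9789 to 11550 CPM in YAP5SA and 18490 to 20760 CPM in Ctrl, and the 9 mesenchyme markers together reached at most 1.18 CPM in YAP5SA and 0.751 CPM in Ctrl. The 6 leukocyte markers summed to 31.3 to 43.2 CPM in YAP5SA and 8.46 to 17.6 CPM in Ctrl, most of it the lysosomal gene Cd68. Cd68 and Lyz2, the 2 with enough counts to be tested, were both called higher in YAP5SA, beside 33.1% of all tested genes. Lyz2 had 71 counts over the YAP5SA libraries and 3 over the Ctrl libraries, whereas Ptprc, which marks leukocytes, had 3 and 15, and Adgre1 had 0. The 4 gastric surface mucous markers summed to 3337 to 4954 CPM in YAP5SA and 34060 to 57520 CPM in Ctrl. The libraries also differed in sex-linked RNA, and each library followed its group. Xist had 0 to 8 counts per library in YAP5SA and 8436 to 12237 in Ctrl. The Y-linked Ddx3y had 2291 to 2686 counts per library in YAP5SA and 0 in every Ctrl library. Genotype and these sex-linked transcripts cannot be told apart in any comparison below. In bulk RNA, fewer cells of a kind and less RNA per cell cannot be told apart either.

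Of the 9 SOX genes, 7 had enough counts to be tested and 6 of these were called, 3 higher and 3 lower in YAP5SA, at an adjusted p under 0.05 in the edgeR quasi-likelihood test over all 13812 genes tested. The comparison moved much of the transcriptome: 64.5% of all tested genes were called, 33.1% higher and 31.3% lower. The 3 higher ones were the whole of group C, Sox11, Sox12 and Sox4. The 3 lower ones were Sox13, Sox21 and Sox2. Sox9 was not called. Sox7 was under the count filter and Sox15 had no counts. For the 6 called genes the 4 YAP5SA libraries lay entirely on one side of the 4 Ctrl libraries, above them for 3 and below them for 3. Over all tested genes this was so for 58.7%, above for 30.4% and below for 28.3%. The change was over 2-fold for 3 of them, Sox11, Sox12 and Sox13, against 25.5% of tested genes that were called with over 2-fold change.

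**Figure D1:**
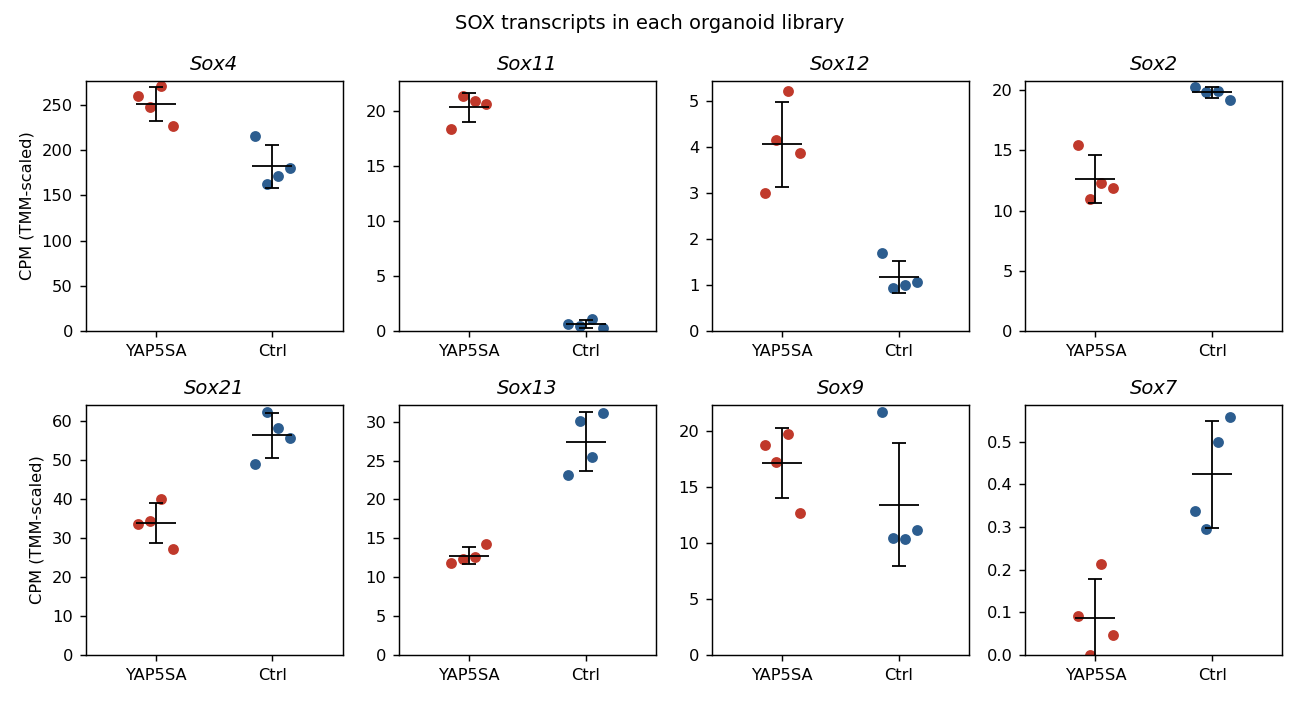
CPM (TMM-scaled, linear axes from 0) of 8 SOX genes in each library, with YAP5SA at the left and Ctrl at the right of each panel; points are libraries, the long bar is the mean and the whiskers the SD over 4 libraries, cut at 0 for Sox7. Sox11 sits between 18.4 and 21.4 CPM in YAP5SA and between 0.279 and 1.13 CPM in Ctrl, while the groups overlap for Sox9, where Ctrl replicate 1 lies at 21.7 CPM.

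Sox11, which encodes a group C activator of embryonic neural and mesenchymal progenitors, had the largest log2 fold change of the 7 tested genes. It had 405, 411, 393 and 453 counts in YAP5SA replicates 1 to 4, and 11, 8, 27 and 5 counts in Ctrl replicates 1 to 4. In CPM these were 18.4, 21.4, 20.9 and 20.7 in YAP5SA, against 0.621, 0.474, 1.13 and 0.279 in Ctrl. The YAP5SA libraries held similar levels, all far above the Ctrl libraries, of which replicate 3 was the highest. The log2 fold change was 4.94 (SE 0.25, edgeR adjusted p = 6.84e-10), a 30.7-fold difference, and 1.22% of tested genes changed by as much or more in either direction.

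Sox12, a group C gene with broad embryonic expression, had 66, 80, 98 and 85 counts in YAP5SA replicates 1 to 4, against 30, 16, 24 and 19 counts in Ctrl replicates 1 to 4. This is 3.00 to 5.22 CPM in YAP5SA and 0.948 to 1.69 CPM in Ctrl, and the highest Ctrl library, replicate 1, stayed below the lowest YAP5SA library. The log2 fold change was 1.79 (SE 0.27, edgeR adjusted p = 4.74e-05).

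Sox4, the most abundant SOX transcript in these organoids and a gene with roles in many embryonic epithelia, had 259, 248, 270 and 227 CPM in YAP5SA and 216, 162, 171 and 180 CPM in Ctrl. The groups did not overlap, although YAP5SA replicate 4 and Ctrl replicate 1 came close to each other. Sox4 rose by 0.46 on the log2 scale (SE 0.09, edgeR adjusted p = 0.00059), or 1.38-fold, and 53.9% of tested genes changed by at least as much. In the GENCODE M21 annotation the single exon of Sox4 shares 2616 bases with the long noncoding RNA Gm26735 on the opposite strand, which was not analysed here. The strand setting of the counting is not given in the sources used here. Reads in the shared bases may therefore have been added to Sox4 or left out of it. The level of Sox4, also per kilobase and as a share, carries that limit.

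The promoters of the 3 group C genes are shown because these genes rose together. Each sequence is the 250 bases before the RefSeq start (GRCm38.p6), all from the minus strand, at chr13:28953700-28953949 for Sox4, chr12:27342719-27342968 for Sox11 and chr2:152398047-152398296 for Sox12, written 5′ to 3′. Capitals mark CCAAT or its reverse complement ATTGG, the letters of the CCAAT box, and GGAATG or its reverse complement CATTCC, the core letters bound by TEAD factors, the DNA-binding partners of YAP.
Sox4: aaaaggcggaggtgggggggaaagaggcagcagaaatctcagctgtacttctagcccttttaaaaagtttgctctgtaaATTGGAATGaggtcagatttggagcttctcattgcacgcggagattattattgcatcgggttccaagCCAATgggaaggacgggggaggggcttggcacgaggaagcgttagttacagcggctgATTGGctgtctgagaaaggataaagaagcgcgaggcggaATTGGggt
Sox11: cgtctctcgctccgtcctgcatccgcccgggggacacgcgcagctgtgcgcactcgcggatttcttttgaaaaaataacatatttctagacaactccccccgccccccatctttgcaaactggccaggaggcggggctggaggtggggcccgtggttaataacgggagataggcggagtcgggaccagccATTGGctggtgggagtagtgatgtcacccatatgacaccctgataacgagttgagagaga
Sox12: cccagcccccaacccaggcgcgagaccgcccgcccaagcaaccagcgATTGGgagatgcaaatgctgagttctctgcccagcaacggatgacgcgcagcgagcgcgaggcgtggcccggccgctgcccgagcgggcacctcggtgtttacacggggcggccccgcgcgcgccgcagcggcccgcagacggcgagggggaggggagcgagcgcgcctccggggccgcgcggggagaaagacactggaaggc
All 3 hold CCAAT letters on at least 1 strand, 4 times in Sox4 and once each in Sox11 and Sox12, and 33.8% of 32536 distinct promoter windows of this length hold them. GGAATG is present once, in Sox4, where its first bases are shared with an ATTGG, and 12.6% of windows hold GGAATG on either strand. A window was found for 7 of the 9 genes, and none of the other 4 windows holds GGAATG. Among those windows CCAAT letters occur in Sox2. ACAAT, a SOX core that 27.4% of windows hold, occurs in Sox15, and ACAAAG, which both SOX and TCF factors can bind and which 16.5% of windows hold, occurs in Sox2. These matches describe the letters in the windows, and no binding was measured.

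Sox2, a group B1 factor of foregut progenitors, had 15.4, 10.9, 12.3 and 11.9 CPM in YAP5SA replicates 1 to 4 and 20.3, 19.8, 19.9 and 19.2 CPM in Ctrl replicates 1 to 4. The SD was 15.5% of the mean over the YAP5SA libraries and 2.31% over the Ctrl libraries, and the groups did not overlap. Sox2 fell by 0.65 on the log2 scale (SE 0.12, edgeR adjusted p = 0.000277), and 41.4% of tested genes changed by at least as much. Sox2ot, a long noncoding RNA whose gene spans Sox2, had 0 to 7 counts per library in YAP5SA and 1 to 5 in Ctrl, few beside the 210 to 340 and 335 to 477 counts of Sox2.

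Sox21, which encodes a group B2 factor known from chick neural tube as an opponent of group B1 activators, had 33.6, 34.3, 39.9 and 27.2 CPM in YAP5SA and 48.9, 62.4, 58.1 and 55.6 CPM in Ctrl. All YAP5SA libraries were below all Ctrl libraries. It fell by 0.74 on the log2 scale (SE 0.11, edgeR adjusted p = 5.74e-05). The noncoding RNA Gm4675 overlaps 713 bases of the Sox21 exon on the other strand in GENCODE M21, and it had 15 to 23 counts per library in YAP5SA and 30 to 52 in Ctrl, against 597 to 748 and 866 to 1394 for Sox21.

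SOX2, SOX15 and SOX21 are also known from squamous and basal epithelium, whose markers were therefore read beside Sox2 and Sox21. Trp63 had 0 counts in YAP5SA and 1 in Ctrl, and Krt5 had 4 and 124. The 7 squamous markers together summed to 255 to 360 CPM in YAP5SA and 32.9 to 55.4 CPM in Ctrl, most of it from the keratin gene Krt4, at 282 ± 47.6 CPM in YAP5SA and 34.3 ± 8.86 CPM in Ctrl (SD, n = 4 each). Of 5 squamous markers tested, 2 were higher, 1 lower and 2 not called, beside 64.5% called over all tested genes. The relation of these transcripts to the fall of Sox2 and Sox21 was not tested.

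Sox9, a group E factor of endodermal progenitors and of cartilage, did not pass the test. It had 18.8, 17.2, 19.8 and 12.7 CPM in YAP5SA replicates 1 to 4, against 21.7, 10.5, 10.4 and 11.1 CPM in Ctrl replicates 1 to 4. Ctrl replicate 1 was above every other library of either group, while the other 3 Ctrl libraries were below all 4 YAP5SA libraries. The log2 fold change was 0.35 (SE 0.22, edgeR adjusted p = 0.179). Without Ctrl replicate 1 it was 0.65 (SE 0.15) and was called (edgeR adjusted p = 0.00198), and without Ctrl replicate 3 it was 0.23 (edgeR adjusted p = 0.409). Over all alternatives run, the value stayed between 0.23 and 0.65 and the adjusted p between 0.00198 and 0.409.

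The other group E genes were nearly or fully undetected. Sox8 had 3 counts in 1 YAP5SA library and 0 in the other 7 libraries, and Sox10, a neural crest factor, had 0 in all 8. Of 13 cartilage genes bound by SOX9, only Col11a2, which encodes a fibrillar collagen chain, had enough counts to be tested. Col11a2 rose by 0.92 on the log2 scale (SE 0.27, edgeR adjusted p = 0.00795), with 43 to 51 counts per library in YAP5SA and 17 to 28 in Ctrl. The collagen gene Col2a1, the best known SOX9 target, had 10 counts over the YAP5SA libraries and 16 over the Ctrl libraries. Of the 12 genes under the count filter, 3 had 0 counts in all libraries and the others did not share a direction. Chosen after their values were seen, Col11a1 had 52 counts over the YAP5SA libraries and 0 over the Ctrl libraries, whereas Chad had 0 and 16, and Matn1 had 1 and 20.

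Sox13, the group D member of the 9, whose protein dimerises through a coiled coil and lacks a known activation domain, fell. It had 11.8, 12.3, 12.6 and 14.3 CPM in YAP5SA, against 23.1, 30.1, 25.4 and 31.1 CPM in Ctrl. The YAP5SA libraries were close together and all below the Ctrl libraries. The log2 fold change was -1.10 (SE 0.12, edgeR adjusted p = 1.92e-06), a 2.15-fold difference.

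The other 2 genes of group D moved in opposite directions to each other, at low levels. Sox5, a partner of SOX9 in cartilage, had 8 to 20 counts per library in YAP5SA and 58 to 90 in Ctrl, and its log2 fold change was -2.68 (SE 0.32, edgeR adjusted p = 4.94e-06). Sox6, its close relative, had 24 to 60 counts per library in YAP5SA and 1 to 8 in Ctrl, and its log2 fold change was 2.98 (SE 0.49, edgeR adjusted p = 0.00011). Per kilobase of exon, Sox6 was at 1.79 to 7.27 times the level of Sox5 in the YAP5SA libraries and at 0.0124 to 0.134 times in the Ctrl libraries. These ratios are descriptions of levels near the limit of detection, with as little as 1 count of Sox6 in a library.

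Sox7, a group F factor of endothelium and early endoderm, was at the edge of detection. It had 2, 0, 4 and 1 counts in YAP5SA replicates 1 to 4 and 6, 5, 12 and 10 counts in Ctrl replicates 1 to 4, so that the highest YAP5SA count was below the lowest Ctrl count. The ratio of the pooled counts per total, YAP5SA over Ctrl, was 0.224 (95% exact counting interval 0.0835 to 0.514, counting error only). With 1 library left out it ran from 0.124 (interval 0.0243 to 0.394, without YAP5SA replicate 3) to 0.293 (interval 0.11 to 0.674, without YAP5SA replicate 2). Sox7 entered the test only with no filter on low counts, where it was at -2.23 (SE 0.85, edgeR adjusted p = 0.0248). That fit estimated the spread differently, with an SE of 0.14 for Sox9 against 0.22 in the main test. The 7 endothelial markers, none with enough counts to be tested, summed to 0.213 to 0.730 CPM in YAP5SA and 0.670 to 1.81 CPM in Ctrl. Among them Cdh5 had 5 counts in YAP5SA and 44 in Ctrl, Tek had 16 and 58, Pecam1 had 4 and 6, Kdr had 6 and 1, and Cldn5 had 0 in all libraries. The part of endothelial RNA in the Sox7 counts was not tested.

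Of the other group F genes, Sox17, an endoderm and endothelial factor, rose by 0.47 on the log2 scale (SE 0.14, edgeR adjusted p = 0.0113), with 14.5 ± 2.01 CPM in YAP5SA and 10.5 ± 1.59 CPM in Ctrl (SD, n = 4 each), and Sox18 had 0 counts throughout. Sox15, the only group G gene, which is known in mouse from trophoblast and muscle precursors, had 0 counts in all 8 libraries. A count of 0 allows up to 3 counts, or 0.143 to 0.173 CPM per library in YAP5SA and 0.116 to 0.165 CPM in Ctrl, taken over library totals without TMM scaling. In all, 11 SOX rows of the table lie outside the 9 genes. Of these, 3 were tested, 2 were higher (Sox6 and Sox17) and 1 lower (Sox5), beside 33.1% higher and 31.3% lower over all tested genes. Another 7, among them the Y-linked Sry, had 0 counts in every library.

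**Figure D2:**
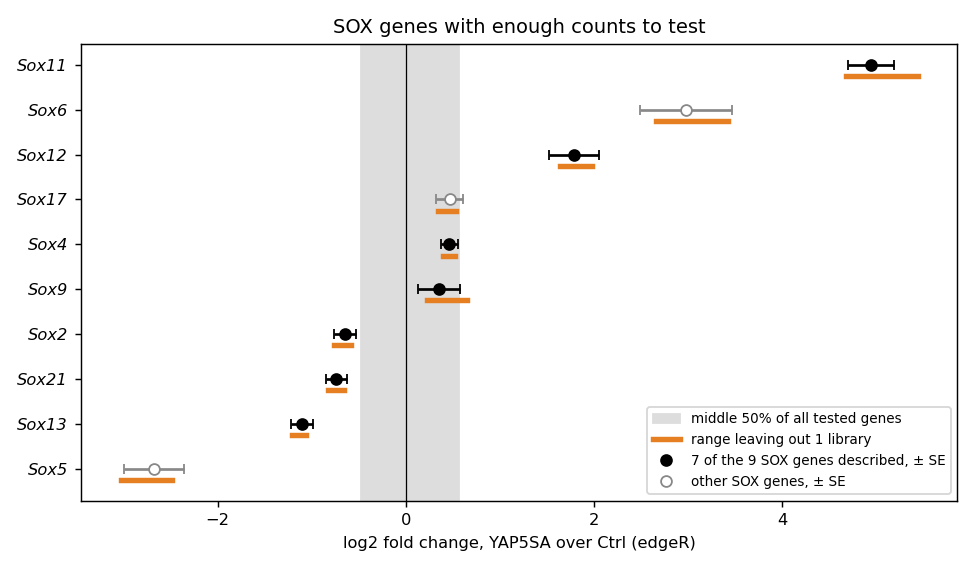
Log2 fold change, YAP5SA over Ctrl, with its standard error, for the 10 SOX genes that were tested; filled points are the described genes, open points the other SOX genes, orange bars the range when each library is left out in turn, and the grey band the middle of the distribution of all tested genes (-0.47 to 0.57). Sox11 lies at 4.94, Sox13 at -1.10, and Sox4, Sox9 and Sox17 lie inside the grey band.

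Levels of different genes were set beside each other per kilobase of exon, with exon lengths from GENCODE M21 (GRCm38). In YAP5SA the order was Sox4 (52.3 ± 3.89 CPM per kb), Sox21 (8.88 ± 1.36), Sox2 (6.14 ± 0.954), Sox9 (4.14 ± 0.757), Sox13 (2.95 ± 0.251), Sox11 (2.45 ± 0.161), Sox12 (0.913 ± 0.206) and Sox7 (0.0265 ± 0.0278; SD, n = 4 each). In Ctrl it was Sox4 (38.0 ± 4.94 CPM per kb), Sox21 (14.8 ± 1.49), Sox2 (9.62 ± 0.222), Sox13 (6.36 ± 0.875), Sox9 (3.24 ± 1.33), Sox12 (0.264 ± 0.0781), Sox7 (0.128 ± 0.0382) and Sox11 (0.0752 ± 0.0436). Neighbours whose libraries overlapped were Sox21 with Sox2 and Sox9 with Sox13 in YAP5SA, and Sox7 with Sox11 in Ctrl. Sox11 thus stood last of these 8 genes in Ctrl, level with Sox7, and above Sox12 in YAP5SA.

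The summed level per kilobase of all SOX genes with counts, Sox5, Sox6, Sox8 and Sox17 included, was 73.7 to 87.5 in the YAP5SA libraries and 72.3 to 80.9 in the Ctrl libraries, and these ranges overlapped. Within that sum Sox4 held 64.1% to 64.8% in the YAP5SA libraries and 46.7% to 55.7% in the Ctrl libraries. Sox21 held 10.9% ± 0.977 in YAP5SA and 19.9% ± 2.92 in Ctrl (SD, n = 4 each), and Sox2 held 6.67% to 9.01% in YAP5SA and 12.2% to 13.4% in Ctrl. Sox11 held 2.66% to 3.37% in YAP5SA and 0.0451% to 0.188% in Ctrl. These shares describe the libraries and were not tested.

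**Figure D3:**
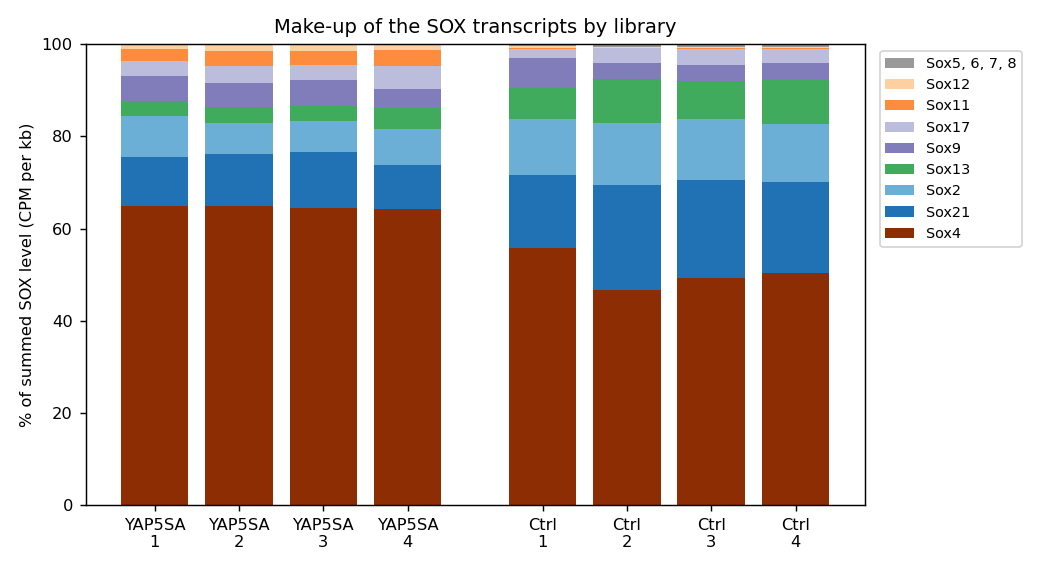
Share of each SOX gene in the summed SOX level (CPM per kb of exon, in percent) for each library, YAP5SA replicates 1 to 4 at the left and Ctrl replicates 1 to 4 at the right. Sox4 fills 64.1% to 64.8% of the YAP5SA bars and 46.7% to 55.7% of the Ctrl bars, and the Sox11 segment is visible in the YAP5SA bars.

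Whether related genes responded unequally was tested on the difference of their log2 CPM in each library, with an exact two-sided permutation test over all 70 assignments of 4 of the 8 libraries to YAP5SA. The smallest p this design allows is 0.0286, and p-values were adjusted over 5 pairs by the Benjamini-Hochberg method. Within group C all 3 pairs differed, each at that smallest p. They are not 3 independent results, because each difference follows from the others, and the adjusted p counts all of them. Sox11 minus Sox12 averaged 2.32 ± 0.25 in YAP5SA and -0.91 ± 0.77 in Ctrl (SD, n = 4 each), so that the log2 fold change of Sox11 exceeded that of Sox12 by 3.23 (exact permutation p = 0.0286, adjusted p = 0.0476). Sox4 minus Sox11 averaged 3.62 ± 0.16 in YAP5SA and 8.09 ± 0.73 in Ctrl, a difference of -4.48, and Sox4 minus Sox12 averaged 5.94 ± 0.31 in YAP5SA and 7.18 ± 0.18 in Ctrl, a difference of -1.25, both with an exact permutation p of 0.0286 and an adjusted p of 0.0476. The 3 log2 fold changes thus stood in the order Sox11, Sox12, Sox4, with each step between them larger than the spread of the libraries.

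No difference was found between the responses of Sox2 and Sox21. Sox2 minus Sox21 averaged -1.41 ± 0.30 in YAP5SA and -1.50 ± 0.16 in Ctrl, and the difference of 0.09 was within the spread of the libraries (exact permutation p = 0.686, adjusted p = 0.686). This does not show that the 2 genes respond alike. Sox9 minus Sox2 averaged 0.43 ± 0.29 in YAP5SA and -0.63 ± 0.49 in Ctrl, a difference of 1.06 that did not pass the threshold (exact permutation p = 0.0571, adjusted p = 0.0714). Without Ctrl replicate 1 that difference was 1.30 and passed (exact permutation, adjusted p = 0.0357).

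**Figure D4:**
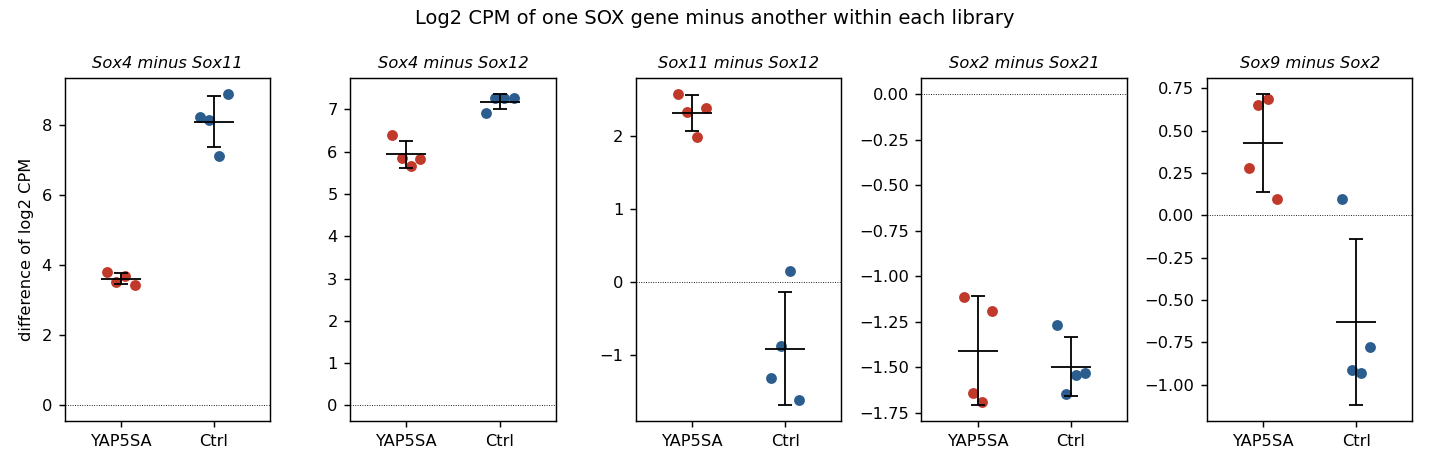
Difference of log2 CPM between 2 SOX genes within each library, YAP5SA at the left and Ctrl at the right of each panel; points are libraries, bars and whiskers the mean and SD of 4 libraries, and the dotted line marks 0. Sox11 minus Sox12 lies between 1.98 and 2.58 in YAP5SA and between -1.61 and 0.16 in Ctrl, whereas the groups overlap for Sox2 minus Sox21.

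Of 22 other genes with an HMG box listed, 19 were tested, 8 were higher, 6 lower and 5 not called, with a median log2 fold change of 0.23 against 0.02 over all tested genes, of which 64.5% were called, 33.1% higher and 31.3% lower. Tcf7l2, the main TCF factor of Wnt signalling in gut epithelium, fell to 6.82 ± 0.469 CPM in YAP5SA, against 19.0 ± 1.20 CPM in Ctrl (log2 fold change -1.48, SE 0.11, edgeR adjusted p = 6.65e-08). Tox3 had a log2 fold change of -2.35 (SE 0.26) and Ubtf, a factor of ribosomal RNA transcription, one of -0.76 (SE 0.09). Hmgb2, a chromatin protein of proliferating cells, rose by 1.10 (SE 0.08), with 64.4 ± 1.91 CPM in YAP5SA and 30.1 ± 2.76 CPM in Ctrl. Lef1, the TCF family member of hair and lymphoid cells, had 0 counts in all libraries.

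Of 23 genes listed for partners of SOX proteins and for enzymes that modify or degrade them, 17 were tested, 7 were higher, 4 lower and 6 not called, with a median log2 fold change of 0.11, beside the 64.5% called over all tested genes. None of the 17 changed by over 2-fold, against 25.5% of all tested genes that were called with such a change. Ctnnb1, which encodes beta-catenin, a protein that several SOX factors bind, was at 1169 ± 104 CPM in YAP5SA and 2033 ± 166 CPM in Ctrl (log2 fold change -0.80, SE 0.08, edgeR adjusted p = 1.76e-06). The coactivator genes Crebbp and Ep300 had log2 fold changes of -0.85 (SE 0.16) and -0.51 (SE 0.09). Smad3, which encodes a TGF-beta effector that binds SOX9, rose by 0.71 (SE 0.07), the methyltransferase gene Setd7 by 0.82 (SE 0.08) and the ubiquitin ligase gene Wwp1 by 0.89 (SE 0.08). Fbxw7, which encodes the recognition subunit of a ligase that degrades SOX9, was at -0.09 (SE 0.09, edgeR adjusted p = 0.413). Pou5f1, a partner of SOX2 in pluripotent cells, had 0 counts in every library, and Pax6, its partner in the lens, had 7 counts over the libraries of each group.

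Of 5 genes reported downstream of SOX4 and SOX11 in other tissues, 4 were tested, 1 was higher, 1 lower and 2 not called, with a median log2 fold change of -0.34, beside 64.5% called over all tested genes. Tead2, which encodes a TEAD factor and is reported as a target of group C in mouse mesenchyme, had 5.97 ± 1.48 CPM in YAP5SA and 6.05 ± 1.26 CPM in Ctrl (log2 fold change -0.03, SE 0.22, edgeR adjusted p = 0.916), and its sign turned when libraries were scaled by size alone (0.15). Tubb3, the neuronal tubulin gene, had 21 counts over the YAP5SA libraries and 79 over the Ctrl libraries (log2 fold change -1.97, SE 0.41). Ezh2, which encodes the histone methyltransferase of the Polycomb complex, rose by 0.40 (SE 0.09). The neuronal gene Dcx had 0 counts in YAP5SA and 1 in Ctrl.

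Of 24 transcription factors listed for the patterning of foregut and stomach, where SOX2 also acts, 17 were tested, 6 were higher, 8 lower and 3 not called, with a median log2 fold change of -0.44. Over all tested genes 64.5% were called, 33.1% higher and 31.3% lower. Of the 17, 8 changed by over 2-fold, against 25.5% of all tested genes called with such a change. Hnf4a, a regulator of glandular epithelial genes, was at 56.6 ± 3.11 CPM in YAP5SA and 242 ± 20.1 CPM in Ctrl (log2 fold change -2.10, SE 0.08), and Foxq1, a factor of gastric mucous cells, was at 64.3 ± 5.75 CPM in YAP5SA and 214 ± 15.1 CPM in Ctrl (-1.73, SE 0.08). Klf4 and Foxa3 had log2 fold changes of -2.97 (SE 0.14) and -3.08 (SE 0.14). Irx2 and Onecut1, chosen after their values were seen, rose by 2.70 (SE 0.16) and 2.64 (SE 0.42). Cdx1 and Cdx2, the factors of intestinal identity that SOX2 is known to oppose, had 0 and 3 counts over the YAP5SA libraries and 1 and 6 over the Ctrl libraries. The other 4 genes listed as intestinal markers were all called, 3 lower and 1 higher, beside 64.5% called over all tested genes. The 6 together summed to 48.5 to 55.7 CPM in YAP5SA and 727 to 1030 CPM in Ctrl. Most of this was Lgals4, which encodes a galectin of gut epithelium, at 30.0 ± 5.18 CPM in YAP5SA and 774 ± 125 CPM in Ctrl (SD, n = 4 each). Vil1, the gene of a brush border protein, was at 19.9 ± 3.55 CPM in YAP5SA and 116 ± 26.3 CPM in Ctrl, and the mucin gene Muc2 was at 2.52 ± 0.747 CPM in YAP5SA and 0.555 ± 0.176 CPM in Ctrl. Fabp1 had 5 counts over the YAP5SA libraries and 84 over the Ctrl libraries. Whether Lgals4 and Vil1 mark intestinal cells in these cultures was not tested, and neither was the relation of these transcripts to the fall of Sox2. Nkx2-1, the lung and thyroid factor of the ventral foregut where SOX2 marks the dorsal side, had 0 counts in all libraries.

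**Figure D5:**
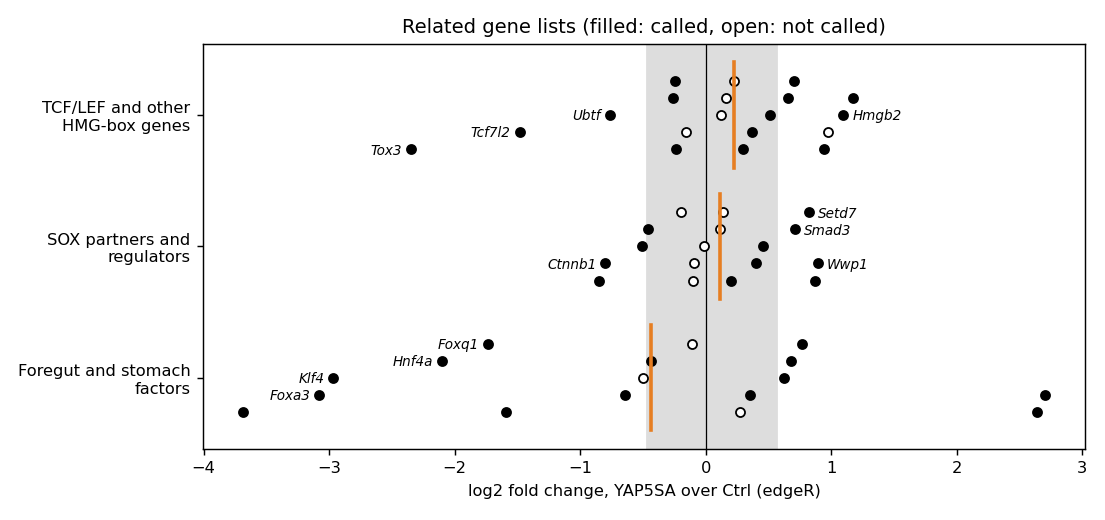
Log2 fold change, YAP5SA over Ctrl, of the tested genes in 3 lists; each point is a gene, filled where it was called and open where it was not, the orange line is the median of the list (0.23, 0.11 and -0.44 downward) and the grey band the middle of all tested genes. Points lie on both sides of 0 in each list, and the 4 genes with the smallest p in each are named.

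Gene profiles over the 8 libraries were compared with those of the 3 SOX genes called with over 2-fold change. Predicted genes, Rik names and Ensembl-only names were left out. The most alike of the remaining tested genes were found by the root mean square difference of mean-centred log2 CPM. For Sox13 these were Rps6ka4 (0.05) and Tbc1d13 (0.07), for Sox12 Nkain2 (0.18) and Cenpw (0.19), and for Sox11 Pwwp4b (0.34) and Ifi44 (0.36). Rps6ka4, which encodes a stress-activated kinase, was at 18.4 CPM in YAP5SA and 39.6 CPM in Ctrl. Cenpw, which encodes a centromere protein, was at 2.41 CPM in YAP5SA and 0.700 CPM in Ctrl. Pwwp4b and Ifi44 had log2 fold changes of 7.28 (SE 0.52) and 5.70 (SE 0.40), larger than the 4.94 of Sox11. They were at 2.99 and 5.76 CPM in YAP5SA and 0.01042 and 0.1025 CPM in Ctrl. The log2 CPM of values this low depend on the prior count added to them, which limits the likeness to Sox11. The likeness describes the profiles, most of which is the difference between the groups, and it was not tested.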

How the data were processed

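The values are raw read counts, deposited by the authors as 1 table with 56691 gene rows and a column per library. The submitters' processing notes name cutadapt, HISAT2 2.0.1, HTSeq 0.6.1 and the build mm9. The sources used here give neither annotation nor strand setting. For this reason no coordinates were taken from the table, and levels per kilobase and promoter windows use other references (GENCODE M21 and RefSeq on GRCm38.p6), matched by symbol. Groups and replicate numbers come from the sample titles. Replicates differed by more than sampling noise (chi-square per degree of freedom 4.94 to 38.3).

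The test was run with edgeR 4.0.16 under R 4.3.3: filterByExpr (minimum count 10, minimum total 15) kept 13812 genes, libraries were scaled by TMM, and the quasi-likelihood F test compared YAP5SA with Ctrl, two-sided, with Benjamini-Hochberg adjustment over all genes tested and 0.05 as the threshold. An SE is the size of the log2 fold change over the root of its F. CPM are TMM-scaled. Log2 CPM use a prior count of 2. Pairs of SOX genes were tested by exact permutation. Floors of 3 counts and 95% Clopper-Pearson intervals reflect counting error alone, because reads without molecular identifiers are not independent molecules.

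The SOX genes, the lists and the rules were chosen with earlier results of these data known. The text names all SOX genes, up to 4 tested genes of each list with the smallest p, and list members tied to a SOX factor by their role. It also names the 2 nearest profiles of each SOX gene changed over 2-fold, with predicted genes, Rik names and Ensembl-only names left out. Other names, among them Lef1, the sex-linked genes and those cell type markers outside this rule, were chosen after their values were seen. Alternatives were DESeq2 1.42.0, limma-voom (limma 3.58.1), RLE and library size scaling, no filter, the replicate number as a block, a minimum of 1 CPM in 4 libraries, a prior count of 0.5, the longest transcript as length, and leaving out each library in turn.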

Additional observations from a re-analysis of the deposited data

Results flagged for a closer look

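In 3 of the 23 sets of 4 libraries checked for the SOX genes, 1 library stood far from the other 3 by Dixon's criterion. Chance flags about 1 in 20 sets of continuous values, a rate that does not hold for counts near 0. Ctrl replicate 1 had 21.7 CPM of Sox9 (384 counts), against 10.4 to 11.1 CPM in the other Ctrl libraries. The same library had 1.69 CPM of Sox12 (30 counts), against 0.948 to 1.06 CPM. YAP5SA replicate 4 had 0.137 CPM of Sox8, from 3 counts, where the other YAP5SA libraries had 0. Any lone count among libraries with 0 meets the criterion, so this flag carries no weight.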

How the results depend on the processing

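All 6 SOX calls kept their direction and stayed called under every alternative run. Over these, Sox11 ranged from 4.68 to 5.44, Sox12 from 1.64 to 1.98, Sox4 from 0.39 to 0.63, Sox2 from -0.76 to -0.47, Sox21 from -0.83 to -0.56 and Sox13 from -1.20 to -0.93 on the log2 scale. Library size scaling moved the median of all tested genes to 0.19, against 0.02. The number of SOX genes called was 6 to 7 when 1 library was left out, the seventh being Sox9 without Ctrl replicate 1. With no filter it was 8, where Sox7 and Sox9 were added (Sox9 at 0.35, adjusted p = 0.0301), and 9716 genes were called over the whole table. That fit estimated the spread differently. The SE of Sox9 was 0.14, against 0.22 in the main test at the same 0.35, while that of Sox12 was 0.29 against 0.27. The calls of Sox7 and Sox9 with no filter carry that limit. Calls over all genes numbered 8299 to 8972 with 1 library left out. The replicate numbers share no named source, and deviations of same-numbered libraries correlated at 0.046 to 0.281, not every library best with its own number; with the replicate block 9174 genes were called, and Sox9 was at 0.40 (adjusted p = 0.0345). Within the block the 3 group C pair differences, -4.48, -1.25 and 3.23, had an adjusted p of 0.156, since 4 pairs of libraries allow no p below 0.125. With 1 library left out, Sox2 minus Sox21 ranged from -0.012 to 0.18 and Sox9 minus Sox2 from 0.96 to 1.30. By the longest transcript Sox13 was at 3.45 CPM per kb in YAP5SA and 7.43 in Ctrl. Tead2 turned to 0.15 by library size and to 0.08 without Ctrl replicate 3, and with 1 library left out it ranged from -0.13 to 0.13 (the highest without YAP5SA replicate 4), never called. Counts of 0 to 12 limit what can be said of Sox7.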
